A study of Mus musculus with 2 samples.

Results

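The histone genes of mouse liver were examined after selection of polyadenylated RNA. The genes were taken by symbol alone: 67 genes whose symbol starts with Hist1h, Hist2h, Hist3h or Hist4h, called canonical here, and 21 whose symbol starts with H2af, H3f3 or H1f, called variant. These are 88 of the 43346 Ensembl genes in the deposited gene tables. Of the 67 canonical genes 64 are annotated as protein-coding, and of the 21 variant genes 15 are. The other variant entries are the pseudogenes H2af-ps, H2afy3, H3f3a-ps1, H3f3a-ps2 and H3f3c and the antisense gene H3f3aos. The symbols Hist1h2bh, Hist1h2bm and Hist2h2bb also fit and were not analysed here.

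The tissue was the liver of 1 female C57BL/6J mouse, an inbred strain, aged 10 weeks, with no treatment named in the labels. The series holds 2 libraries of this animal, library 2 and library 1, named after their technical replicate number; library 2 was made in May 2015. They form 1 group. The values thus describe, for each histone gene, the RNA recovered after polyA selection and how far both libraries of the same animal differed. Every SD (n = 2) measures technical spread, not variation between mice. The gene tables sum to 19525500 expected counts, which are estimated read or fragment counts, in library 2 and 23309905 in library 1. Mitochondrial genes took 14.9% of TPM, the deposited relative abundance per transcript length, in library 2 and 40.7% in library 1. All 6 hepatocyte markers were above 1 TPM in both libraries. In whole tissue, fewer cells of a type and less RNA per cell cannot be told apart.

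Histones wrap DNA into nucleosomes: H2A, H2B, H3 and H4 form the core particle and H1 binds the linker DNA. Most canonical histone genes lie in clusters, lack introns and are transcribed mainly in S phase, and their mRNAs end just after a conserved stem-loop instead of in a polyA tail. That stem-loop is bound by Slbp and recognised with the U7 small nuclear RNA during 3′ end cleavage. Variant histones such as H3.3 and H2A.Z are made throughout the cell cycle from genes with introns and ordinary polyadenylated mRNAs. Adult hepatocytes divide rarely, and selection for polyA tails favours mRNAs that carry one.

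The end of each histone transcript was read from GENCODE M21 (build GRCm38), which postdates the deposited annotation. The search was for the 16-base histone stem-loop, spelled GGNNNTTTTNANNNCC on the transcript's strand, with the letters of one arm required to pair with those of the other (6 pairs around a loop of 4 bases). It was present in an annotated transcript of 42 of the 67 canonical genes and of 1 of the 21 variant genes, H2afx. A gene without a match may have a stem-loop beyond its annotated end. A single spelling served 24 genes, among them 3 of H1, 10 of H2A, 6 of H2B and 5 of H3. Another spelling was shared by 7 H4 genes. The windows below show the stem-loop in capitals for the most abundant linker and H2A canonical genes with one, for an H4 gene and for H2afx, each written 5′ to 3′ on the transcript's strand.
Hist1h1c-201, chr13:23739505-23739534, plus strand: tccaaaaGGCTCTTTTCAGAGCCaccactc
Hist2h2aa2-201, chr3:96239777-96239806, minus strand: ctaaaaaGGCTCTTTTCAGAGCCacccact
Hist1h4i-201, chr13:22040959-22040988, minus strand: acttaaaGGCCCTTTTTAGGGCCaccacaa
H2afx-201, chr9:44335233-44335262, plus strand: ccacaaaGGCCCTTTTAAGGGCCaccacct

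Several of the same genes are also annotated with a longer mRNA that reaches a polyA signal, the hexamer AATAAA or ATTAAA, searched on the transcript's strand in the last 50 bases. The next windows show that signal in capitals. Hist1h1c, Hist1h4i and H2afx therefore carry both a stem-loop and a signal, while Hist2h2be and the variants H2afz and H3f3b showed only a signal.
Hist1h1c-201, chr13:23740330-23740359, plus strand: gtgtatgcttctAATAAAaagcgtttagtt
Hist1h4i-201, chr13:22040639-22040668, minus strand: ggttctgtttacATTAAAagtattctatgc
Hist2h2be-201, chr3:96223705-96223734, plus strand: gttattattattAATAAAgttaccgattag
H2afx-201, chr9:44336031-44336060, plus strand: tgggctaattttATTAAAggatcgtttggt
H2afz-201, chr3:137866885-137866914, plus strand: ctctgcttactaATTAAAcagtgcatctgt
H3f3b-201, chr11:116021987-116022016, minus strand: ataggccttacaAATAAActagtaagtttg

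Among 91424 transcripts whose length is the same in the deposited tables and in M21, 41 (0.0448%) held the stem-loop and 33.9% held a signal. The stem-loop was found in 26 of 50 canonical transcripts (52.0%), in 1 of 42 variant transcripts and in 14 of 91332 transcripts of other genes. The signal was found in 13 of the 50 canonical transcripts (26%) and in 12 of the 42 variant transcripts (28.6%). A match describes letters only.

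After polyA selection few canonical genes were present at an appreciable level, and variant genes gave most of the histone RNA. The 67 canonical genes summed to 429 TPM in library 2 and 134 TPM in library 1 (mean 282 ± 208, SD, n = 2). The 21 variant genes summed to 523 TPM in library 2 and 353 TPM in library 1 (mean 438 ± 120, SD, n = 2). Canonical genes thus took 45.1% of histone TPM in library 2 and 27.6% in library 1, less than the variant genes in each, with a mean of 36.3 ± 12.4% (SD, n = 2). In expected counts, canonical genes held 3567 in library 2 and 1872 in library 1, and variant genes 9207 in library 2 and 10631 in library 1. All histone genes together were 0.0654% of counts in library 2 and 0.0536% in library 1.

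At or above 1 TPM in both libraries were 4 of 67 canonical genes and 6 of 21 variant genes, against 39.4% of 21474 protein-coding genes. Taken singly, library 2 had 9 canonical and 10 variant genes at 1 TPM or more, and library 1 had 4 canonical and 6 variant genes. Mitochondrial genes took more of the TPM in library 1. With TPM rescaled without them, 6 canonical and 8 variant genes reached 1 TPM in both libraries. The share of all genes at that setting is not given here. The canonical genes at 0 in both libraries numbered 43. For these 43, 3 counts in a library, the limit that a count of 0 allows, would equal 0.103 to 1.497 TPM in library 2 (median 0.709) and 0.0698 to 0.994 TPM in library 1 (median 0.473). This floor covers counting error only. The median level was 0 TPM for canonical genes in each library, and 0.26 TPM in library 2 and 0.06 TPM in library 1 for variant genes.

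**Figure D1:**
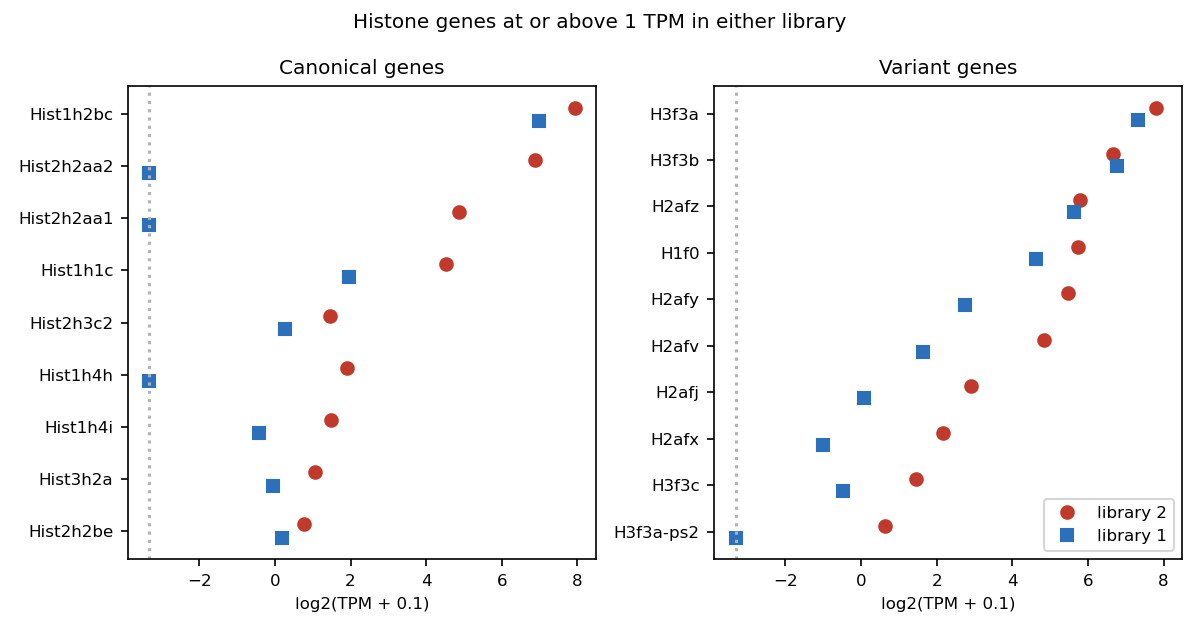
Level of each histone gene with at least 1 TPM in either library, as log2(TPM + 0.1) on the horizontal axis, with canonical genes on the left and variant genes on the right. Circles are library 2, squares library 1, and the dotted line marks 0 TPM; Hist2h2aa2, Hist2h2aa1, Hist1h4h and H3f3a-ps2 lie on it in library 1.

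By family, canonical genes gave almost none of the H3 RNA and all of the H2B and H4 RNA, since no variant symbol under the rule belongs to H2B or H4. Canonical H3 genes summed to 3.04 TPM in library 2 and 1.54 TPM in library 1, beside 329 TPM in library 2 and 268 TPM in library 1 for the H3.3 genes and their pseudogenes. That is 0.915% of H3 RNA in library 2 and 0.572% in library 1. Canonical H1 genes gave 30.4% of H1 RNA in library 2 and 13.4% in library 1. Canonical H2A genes gave 51.6% of H2A RNA in library 2 and 1.41% in library 1, so that for H2A the order of the classes differed between the libraries. The 13 H4 genes summed to 7.95 TPM in library 2 and 1.10 TPM in library 1. This was far below the 16 canonical H2B genes at 245 TPM in library 2 and 127 TPM in library 1, although a nucleosome holds both proteins in equal number. These sums cover RNA that passed polyA selection, so they do not give the level of histone mRNA without a tail.

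**Figure D2:**
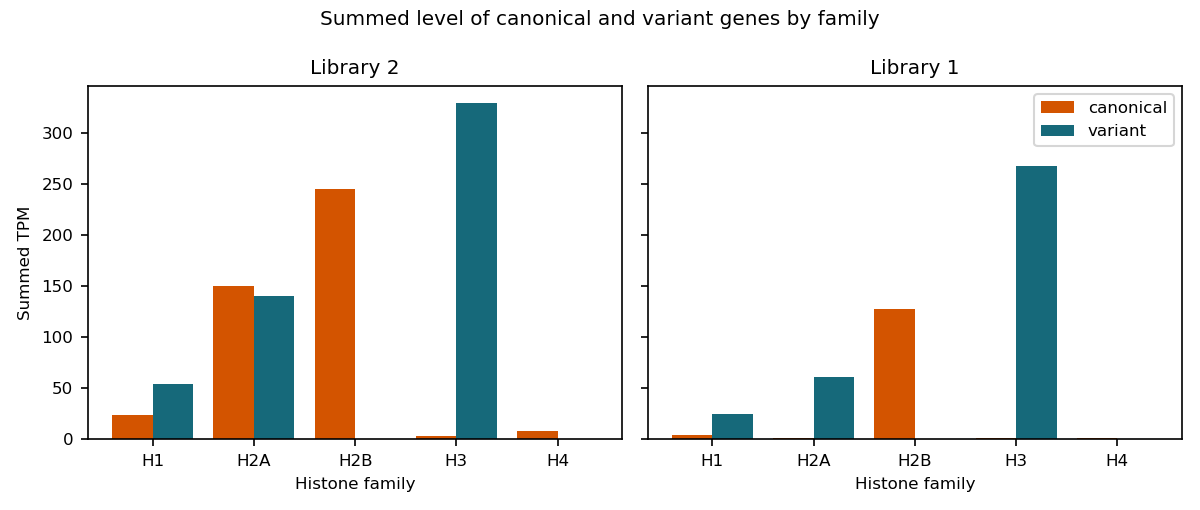
Summed TPM (vertical axis) of canonical and variant genes in each histone family, with library 2 on the left and library 1 on the right. The canonical H2A bar stands at 149.5 TPM in library 2 and at 0.87 TPM in library 1, while the variant H3 bar is the tallest in both panels.

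Among the linker histones, the variant H1f0, which codes for H1.0, the linker histone of non-dividing and differentiated cells, had 53.6 TPM in library 2 and 24.4 TPM in library 1 (mean 39.0 ± 20.6, SD, n = 2), from 1735 and 1168 expected counts. The canonical gene Hist1h1c, which codes for H1.2 (chromosome 13, 23738808 to 23740367, plus strand), had 22.8 TPM in library 2 and 3.76 TPM in library 1. H1f0 was the higher linker gene in each library. Hist1h1d had 0.35 TPM in library 2 and 0 in library 1, from 3 counts, and Hist1h1e had 0.23 TPM in library 2 and 0 in library 1. H1fx, H1foo, the oocyte linker histone, and H1fnt, a linker histone of spermatids, had no count in either library.

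For H2A, the highest gene in library 2 was canonical and had no count in library 1. Hist2h2aa2 (chromosome 3, 96239749 to 96240276, minus strand) had 118 TPM in library 2 and 0 in library 1, and its neighbour Hist2h2aa1 (chromosome 3, 96245497 to 96246082, plus strand) had 29.3 TPM in library 2 and 0 in library 1. They are paralogs on opposite strands that share reads, and the deposited posterior SD of the count of Hist2h2aa1 in library 2, a measure of how reads could be divided, was 30.2 around 180.3 counts. Hist2h2aa1 also overlaps Gm20634 on the same strand, which had 290.6 counts in library 2 and 292.7 in library 1. The pair summed to 802 counts in library 2 and 0 in library 1. Against 3 counts over the pair in library 1, the pair was 214-fold higher in library 2 on the TMM scale, which edgeR sets from the bulk of genes. How reads were divided with Gm20634 is outside this value, which allows for counting error in library 1 alone.

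Of 11 H2A variant genes, 6 had a count in each library. H2afz, the gene of H2A.Z.1, which marks promoters, had 55.04 TPM in library 2 and 49.8 TPM in library 1 (mean 52.4 ± 3.71, SD, n = 2). H2afv, the gene of H2A.Z.2, had 28.5 TPM in library 2 and 3 TPM in library 1. H2afy, the gene of macroH2A1, a variant with a large globular domain, had 44.6 TPM in library 2 and 6.58 TPM in library 1, while its relative H2afy2 had 0.26 TPM in library 2 and 0.15 TPM in library 1. H2afj had 7.35 TPM in library 2 and 0.96 TPM in library 1. H2afx, whose protein is phosphorylated at DNA breaks, had 4.39 TPM in library 2 and 0.40 TPM in library 1. Hist3h2a, a canonical gene outside the main clusters, had 2.00 TPM in library 2 and 0.87 TPM in library 1. The testis variants H2afb1, H2afb2 and H2afb3 had no count.

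One H2B gene held most of the canonical RNA. Hist1h2bc (chromosome 13, 23684199 to 23692908, plus strand) had 243 TPM in library 2 and 126 TPM in library 1 (mean 184 ± 82.8, SD, n = 2), from 2053 and 1583 expected counts. It made up 56.6% of canonical TPM in library 2 and 93.5% in library 1. It was the highest histone gene of all in library 2 and came next after H3f3a in library 1. Without Hist1h2bc the canonical share of histone TPM was 26.3% in library 2 and 2.41% in library 1 (mean 14.3%), an alternative added after the data were seen. The other 63 canonical genes, leaving out Hist1h2bc, the Hist2h2aa pair and Hist1h1c, summed to 16.1 TPM in library 2 and 4.95 TPM in library 1. Hist2h2be, the other H2B gene above 1 TPM, had 1.60 TPM in library 2 and 1.04 TPM in library 1, and Hist1h2be 0.27 TPM in library 2 and 0.36 TPM in library 1.

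The annotation of Hist1h2bc differs from that of a typical canonical gene. In M21 its transcript has 2 exons joined over an intron of 7554 bases: exon 1, from 23684199 to 23684621 (423 bases, 62.4% GC), and exon 2, from 23692176 to 23692908 (733 bases, 36.4% GC). No stem-loop of the searched form was found in it. Its deposited length was 736 bases, against 1156 in M21, so the end used for the deposited values cannot be placed exactly. If the deposited transcript starts where that of M21 does, a signal starts 27 bases before its end, shown here in capitals because this gene carries most of the canonical signal.
Hist1h2bc-201, chr13:23692450-23692479, plus strand: tgatgtatatatAATAAAtgtcatgtaaag

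The H3.3 genes were the highest variant genes. H3f3a had 224 TPM in library 2 and 159 TPM in library 1 (mean 192 ± 46.3, SD, n = 2), and H3f3b, which encodes the same protein, had 101 TPM in library 2 and 108 TPM in library 1 (mean 104 ± 5.16, SD, n = 2). The order of H3f3a above H3f3b held in each library. The pseudogene H3f3c had 2.63 TPM in library 2 and 0.62 TPM in library 1, from 9.14 and 3.23 counts with a deposited posterior SD of 3.32 and 2.98, so that its reads may be shared with its parents. H3f3a-ps2 had 1.45 TPM in library 2 and 0 in library 1. Among the canonical H3 genes, Hist2h3c2 had 2.67 TPM in library 2 and 1.10 TPM in library 1. Hist2h3c1 was estimated at 0 counts in library 2 and 16.3 in library 1, with a posterior SD of 87.3 in library 1. It overlaps Gm20634 on the same strand, which had the same posterior SD there, so the value of Hist2h3c1 was not determined.

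Every H4 gene was low. Hist1h4h had 3.63 TPM in library 2 and 0 in library 1, from 16.04 counts in library 2. Hist1h4i had 2.68 TPM in library 2 and 0.65 TPM in library 1, from 22.3 and 8 counts. Just below 1 TPM stood Hist1h4c, at 0.75 TPM in library 2 and 0 in library 1. Hist2h4, at 0.36 TPM in library 2 and 0.18 TPM in library 1, and Hist4h4, at 0.07 TPM in library 2 and 0.05 TPM in library 1, followed. Hist1h4j had 0.13 TPM in library 2 and 0.22 TPM in library 1, from 1.15 and 3 counts. Each of these values rests on few counts; the deposited posterior SD of the count was at most 0.95 for any H4 gene in library 2 and 0 in library 1.

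Canonical genes with a count were mostly those annotated with a long mRNA. Of 19 canonical genes with a deposited length of 700 bases or more, 16 had at least 1 count in either library and 11 in both. Of 48 shorter genes, 7 had a count in library 2 and 0 in library 1. The long genes held 2743 counts in library 2 and 1872 in library 1, and the short genes 824 in library 2, almost all from the Hist2h2aa pair. At 1 TPM, a level that corrects for length, 6 of the 19 long genes and 3 of the 48 short genes passed in library 2, and 4 and 0 in library 1. The limit of 700 bases was chosen after the values were seen, and no test was made on it. Length was also tied to GC content. Where a GC value was at hand, the long genes ran from 43.8 to 60.2% GC and the short genes from 55.6 to 70.5%. The difference between the libraries moved with GC content, as given below. The parts of length and GC content were not tested. A long gene collects more counts at a given TPM: 3 counts equalled a median of 0.234 TPM for the long and 0.710 TPM for the short genes in library 2, and 0.157 and 0.474 TPM in library 1.

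**Figure D3:**
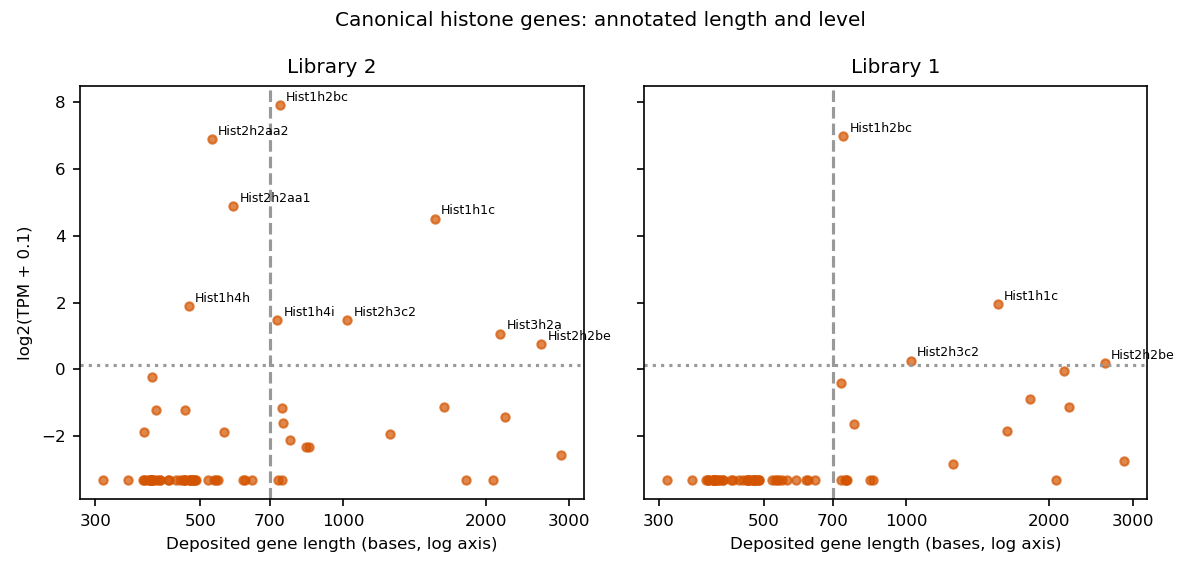
Level of each of the 67 canonical genes as log2(TPM + 0.1) (vertical axis) against its deposited length in bases (horizontal log axis), with library 2 on the left and library 1 on the right. The dashed line marks 700 bases, the dotted line 1 TPM, and genes at 1 TPM or more are named; in library 1 no gene left of the dashed line lies above 0 TPM.

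The distance from the stem-loop to the annotated end was then read among the 50 canonical transcripts of unchanged length. It is tied to length, and so to GC content, and thus gives no separate view. The median length was 1020 bases for transcripts that end over 100 bases past the stem-loop and 478 for those that end 21 to 100 bases past it. No stem-loop was found in 24 of the 50 transcripts, and 3 of their 23 genes had a count. These 24 had a median length of 411 bases. Many may be annotated without the stretch that would hold a stem-loop, so their genes cannot be said to lack one. With a stem-loop, only 3 transcripts end at most 20 bases after it, where cleavage without polyadenylation would place the end. They summed to 0.33 TPM in library 2 and 0 in library 1. Another 14 end 21 to 100 bases after the stem-loop, and 3 of their genes had a count: Hist1h2bj, Hist2h2aa1 and Hist2h2aa2. The 9 transcripts that run on for more than 100 bases belong to 9 genes, 8 of which had a count. These 9 summed to 30.7 TPM in library 2 and 7.22 TPM in library 1. Hist1h1c ends 840 bases past its stem-loop, Hist3h2a 1643, Hist2h3c2 377 and Hist1h4i 330.

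Of the TPM of these 50 transcripts, 98.7% in library 2 and 83.6% in library 1 came from those annotated past 20 bases (mean 91.1%). As 23 of the 26 transcripts with a stem-loop are annotated past 20 bases, the annotation itself sets much of this share. With 100 bases as the limit the share was 16.96% in library 2 and 83.6% in library 1 (mean 50.3%), because the Hist2h2aa pair ends 35 bases after its stem-loop with no signal in its last 50 bases. Hist1h2bc is outside this count; of all canonical TPM, the transcripts annotated past 20 bases gave 41.6% in library 2 and 5.38% in library 1. With a signal in the last 50 bases, 9 of 12 genes had a count, and without one, 6 of 37. The median length was 1560 bases with a signal and 461 without, so these counts are tied to length and GC content too. Annotated ends are not ends measured in this liver, and no reads were examined.

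The libraries of this 1 liver differed for many histone genes as for many other genes. An exact binomial test (two-sided) was run on the TMM-scaled counts of every gene, with Benjamini-Hochberg adjustment over 12728 genes. A gene was called when its log2 fold was 1 or more in either direction and its adjusted p below 0.05. Such a test compares libraries, not conditions. Of 17 histone genes with at least 20 counts in sum, 7 were called higher and 1 lower in library 2, against 32.6% of all tested genes higher and 23.7% lower. With scaling by total count, which moves the median fold of all genes to 0.62, against 0.04 with TMM, 8 histone genes were called higher and 0 lower, since Hist1h4i gained a call and H3f3b lost one, against 41.8% of all tested genes higher and 7.43% lower under that scaling. The median log2 fold of the 17 was 0.36. Hist2h2aa1 and Hist2h2aa2 passed the count filter through library 2 alone, and without them 5 of 15 were called higher and 1 lower.

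On the TMM scale, Hist1h1c was higher in library 2 by a log2 fold of 1.70 (95% exact binomial interval 1.41 to 2.01, adjusted p = 1.6e-36). H2afx (log2 fold 2.50), H2afj (2.03), H2afv (1.44) and H2afy (1.39) were also called higher. H3f3b was called lower, at -1.10 (exact interval -1.17 to -1.03), but not with scaling by total count, where its log2 fold was -0.52. The 2 Hist2h2aa genes, at 0 in library 1, stood at 48.1-fold for Hist2h2aa1 and 166-fold for Hist2h2aa2 against 3 counts in library 1. These folds take the library 2 counts as estimated, so they are not lower limits for either gene, whose reads are shared. Hist1h2bc was not called: its log2 fold was 0.05 (exact interval -0.04 to 0.15, adjusted p = 0.315). H3f3a (-0.81) and H2afz (-0.65) were below the fold limit; their count folds were negative under both scalings (-0.23 and -0.07 by total count), while their TPM was higher in library 2. H1f0 (0.25), Hist3h2a (0.29), Hist2h3c2 (0.36), Hist2h2be (-0.27, but 0.30 by total count), Hist1h4i (1.08, adjusted p = 0.084 in the exact test) and Hist1h2be (-1.28, adjusted p = 0.056 in the exact test) were not called.

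These differences moved with the GC content of the transcripts. Over 12128 genes with a GC value, the fold and the mean GC content of a gene's transcripts had a Spearman rho of 0.869, a description across genes of the same 2 libraries. The median log2 fold was -1.26 for genes of 40 to 45% GC, 0.77 for 50 to 55%, 2.55 for 55 to 60% and 3.89 for 60% or more. Canonical genes had a median GC content of 60.3% (50 of 67 with a value) and variant genes 54.4% (20 of 21), against 49.8% for all protein-coding genes. Hist2h2aa2 (64.2% GC) and Hist2h2aa1 (63.7%) lie in the highest class, as do H2afx (62.3%) and the uncalled Hist2h3c2 (60.2%). The unweighted means of H3f3b (51.2%) and H3f3a (53.1%) lie above the GC content of their main transcripts, which was 41.2% for H3f3b-201 and 45.05% for H3f3a-201. With transcripts weighted by their TPM, H3f3b had 42.1% GC and H3f3a 48.4%, and rho was 0.909 over 12070 genes.

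After a lowess curve of fold on GC content was subtracted, Hist2h2aa2 stood at 5.16 and Hist2h2aa1 at 3.53, values that depend on the prior count since library 1 was at 0. Hist1h1c stood at -0.11, H2afy at -0.21 and H2afj at 0.42, no longer called. H2afv was called higher at 1.56, and H2afx, now at -1.75, was called lower. Of 15 histone genes 3 were then called higher and 4 lower, against 10.6% and 8.53% of all tested genes. The Hist2h2aa pair was among these higher calls, although it passed the count filter through library 2 alone, and H2afv was the only other. The other 3 lower calls, of H3f3b (-1.49), H2afz (-1.56) and H3f3a (-1.88), rested on the unweighted GC mean. With GC content weighted by TPM, a setting added after the data were seen, they stood at 0.20, -0.44 and -0.59 and were not called. In that setting H2afv (1.36) was called higher and H2afx (-2.09) lower, against 7.68% of all tested genes higher and 6.27% lower. Hist2h2aa2 (4.73) and Hist2h2aa1 (3.13), which passed the filter through library 2 alone, were also called higher. Only 3 of 3789 genes with at least 600 counts in library 2 had 0 in library 1: Rpl36 (60.8% GC), Bcl9l (61.7%) and Hist2h2aa2 (64.2%). At a limit of 180 counts there were 10 of 7716 genes, Hist2h2aa1 among them. These limits lie just below the counts of Hist2h2aa2 (621.6) and Hist2h2aa1 (180.3), so the inclusion of the pair was fixed in advance. The part of GC content in the differences was not tested.

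**Figure D4:**
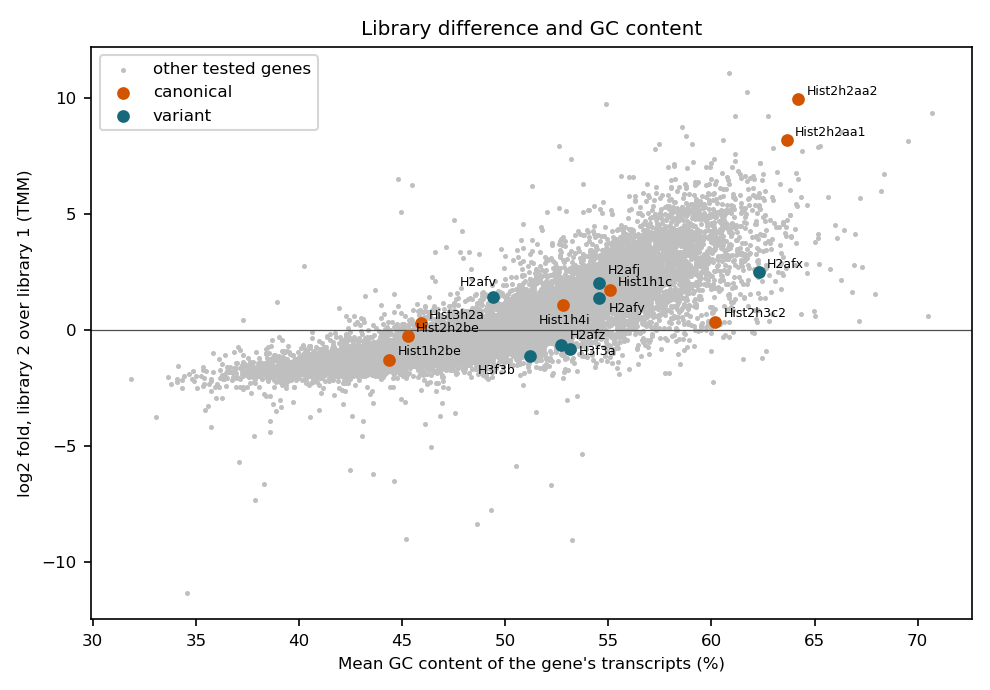
Log2 fold of library 2 over library 1 on the TMM scale (vertical axis) against the unweighted mean GC content of the gene's transcripts in percent (horizontal axis), for tested genes with a GC value. Grey points are other genes, and the 15 named points are histone genes; Hist2h2aa1 and Hist2h2aa2 lie above most genes of their GC content and Hist2h3c2 below.

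The variant genes with several transcripts differed between the libraries in the shares of their transcripts. For H3f3a, the transcript H3f3a-201 held 44.6% of the gene's TPM in library 2 and 84.4% in library 1, while H3f3a-207 held 48.4% in library 2 (108 TPM) and 0% in library 1. H3f3a-207 starts 396 bases upstream of H3f3a-201, ends 327 bases before its end and has 57.5% GC, against 45.05% for that transcript. H3f3a-205, which ends 1865 bases farther on and has a signal, held 6.50% in library 2 and 15.4% in library 1. The higher TPM of H3f3a in library 2 lay mainly in H3f3a-207, listed at 0 in library 1, while H3f3a-201 and H3f3a-205 had less TPM in library 2. The scaled counts of the gene were not higher in library 2 (log2 fold -0.81 with TMM, -0.23 by total count). TPM is also relative to all RNA, of which mitochondrial genes took 14.9% in library 2 and 40.7% in library 1. The part of that share in the TPM of H3f3a was not tested.

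For H2afv, H2afv-201 held 61.0% in library 2 and 0% in library 1, and the longer H2afv-202 39.0% in library 2 and 100% in library 1. For H2afy, H2afy-201 held 33.0% in library 2 and 86.2% in library 1, and H2afy-204 (60.3% GC) 30.0% in library 2 and 1.97% in library 1. H2afz ran mainly as H2afz-201, with 97.8% in library 2 and 74.4% in library 1, and the shorter H2afz-207 held 0% in library 2 and 23.7% in library 1. The transcript H3f3b-201 held 87.8% in library 2 and 99.9% in library 1 of the RNA of its gene. Transcript shares were estimated from reads that the transcripts share, and differences in share were not tested.

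**Figure D5:**
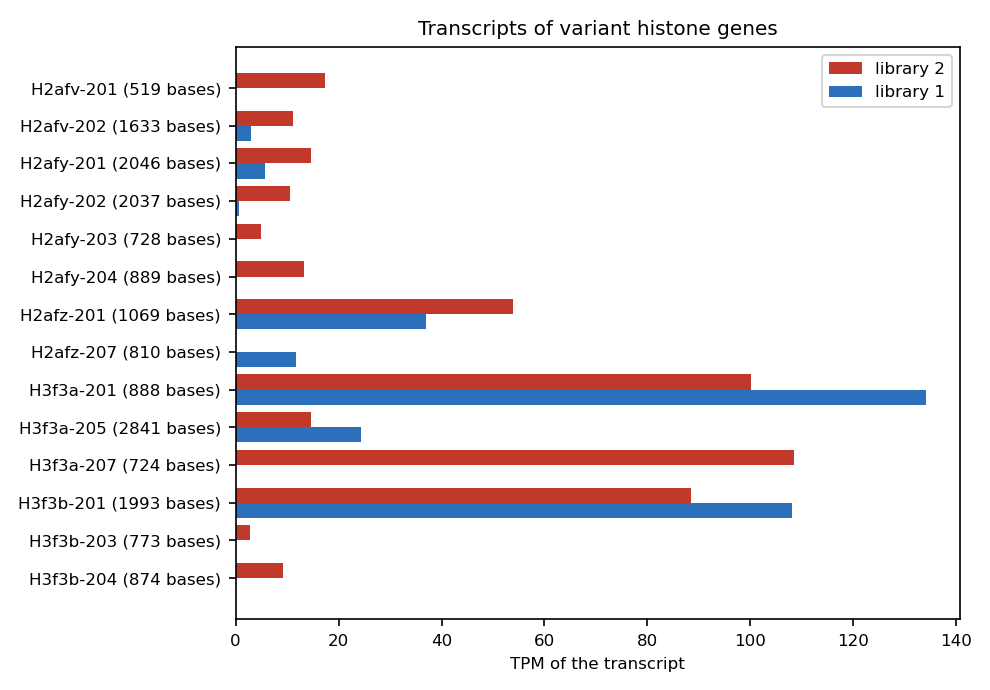
TPM (horizontal axis) of each transcript of H2afv, H2afy, H2afz, H3f3a and H3f3b with at least 2 TPM in either library, with deposited lengths in bases. The upper bar of each pair is library 2 and the lower library 1; H3f3a-207, H2afv-201, H2afy-203 and H3f3b-203 have a bar in library 2 only.

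Most of the listed genes that make or read histone mRNA were present at 1 TPM or more. Of 14 genes for histone mRNA 3′ processing and its control in S phase, 12 reached 1 TPM in library 2 and 11 in library 1. Among all protein-coding genes 39.4% reached 1 TPM in both libraries, a stricter measure than a count in 1 library. Of the 13 listed genes tested, 4 were called higher and 4 lower in library 2 (median log2 fold -0.45, 0.04 for all genes). The shares over all tested genes were 32.6% higher and 23.7% lower. Slbp, the stem-loop binding protein, had 11.9 TPM in library 2 and 12.1 TPM in library 1, but its counts, 255 in library 2 and 411 in library 1, were called lower on the TMM scale (log2 fold -1.01). Lsm10, a subunit of the U7 particle, had 15.4 TPM in library 2 and 1.34 TPM in library 1. Sympk, a scaffold of the cleavage complex, had 26.6 TPM in library 2 and 1.43 TPM in library 1. Zfp473, whose human counterpart works with the U7 particle, was lowest, at 0 in library 2 and 0.02 TPM in library 1.

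Most of the listed genes of cell division were below 1 TPM. Of 23 proliferation genes, 7 reached 1 TPM in library 2 and 4 in library 1. For scale, 39.4% of protein-coding genes reached 1 TPM in both libraries, a stricter measure than a count in 1 library. Of 16 proliferation genes tested, 4 were called higher and 2 lower (median log2 fold -0.49), against 32.6% of all tested genes higher and 23.7% lower. Mki67, a marker of cycling cells, had 0.08 TPM in library 2 and 0.09 TPM in library 1, and Top2a, a topoisomerase of dividing cells, 0.18 TPM in library 2 and 0.23 TPM in library 1. Pcna, the replication clamp, stood higher, at 23.4 TPM in library 2 and 27.3 TPM in library 1. Of 9 histone genes of the germ line, 8 had no count in either library, and Hils1, a spermatid linker histone, had 1 count in library 2. The testis markers had at most 4 counts each.

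Of 17 genes of the polyadenylation machinery, all 17 reached 1 TPM in library 2 and 16 in library 1. For scale, 39.4% of protein-coding genes reached 1 TPM in both libraries, a stricter measure than a count in 1 library. Of the 17, 4 were called higher and 8 lower in library 2 (median log2 fold -0.90), against 32.6% of all tested genes higher and 23.7% lower. The median GC content of these 17 genes was 45.8%, and all tested genes of 45 to 50% GC had a median log2 fold of -0.54. Pabpc1, the cytoplasmic polyA binding protein, had 121 TPM in library 2 and 102 TPM in library 1, and Papola, a polyA polymerase, 40.7 TPM in library 2 and 76.6 TPM in library 1. Of 26 histone chaperones and deposition factors, 23 reached 1 TPM in library 2 and 21 in library 1, with 8 called higher and 6 lower of 23 tested (median log2 fold 0.44). Among them Hjurp, the chaperone of the centromeric H3, had 44.4 TPM in library 2 and 17.04 TPM in library 1. Rbbp7, a histone-binding subunit of several complexes, had 39.4 TPM in library 2 and 46.9 TPM in library 1. Asf1b had 0.20 TPM in library 2 and 0.05 TPM in library 1. Cenpa, that centromeric H3, had 4.65 TPM in library 2 and 1.08 TPM in library 1 and was called higher (log2 fold 1.06, adjusted p = 0.0012 in the exact test).

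Cell type markers differed between the libraries too, as did genes in general, of which 32.6% were called higher and 23.7% lower in library 2. Of the 6 hepatocyte markers 2 were called higher and 1 lower in library 2, and their sum was 72111 TPM in library 2 and 31470.06 TPM in library 1. The erythroid markers Hba-a1, Alas2 and Epor were called higher in library 2. Hba-a1, an alpha globin gene, had 358 TPM in library 2 and 0.68 TPM in library 1, and Alas2, the erythroid enzyme of heme synthesis, 13.8 TPM in library 2 and 3.33 TPM in library 1. Epor, the erythropoietin receptor, had 0.87 TPM in library 2 and 0.05 TPM in library 1. Of 4 Kupffer cell markers 2 were higher and 1 lower, and their sum was 149 TPM in library 2 and 63.8 TPM in library 1. Of 4 endothelial markers 2 were higher, with a sum of 89.0 TPM in library 2 and 23.8 TPM in library 1. Of 5 lymphocyte markers 2 were lower, with a sum of 4.50 TPM in library 2 and 4.31 TPM in library 1. The marker lists also differed in GC content. The median GC content of the tested markers was 57.5% for erythroid (median log2 fold 2.85) and 50.8% for endothelial (1.06). It was 49.5% for Kupffer (0.40), 47.2% for hepatocyte (0.60) and 41.2% for lymphocyte markers (-1.10). The parts of GC content and of these cells in the marker and histone values were not tested.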

How the data were processed

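The members and gene lists were chosen with earlier results of these data known. The authors deposited, for each library, expected counts (estimated from reads by the authors), TPM, FPKM and transcript shares in percent, with TPM bounds and posterior SDs as scores, per the file headers; values rest on mm10 with annotation M4, per the labels and file headers. The aligner, counter, its strand setting and the level of the TPM bounds are stated in none of the sources used here. Some TPM values lie outside their deposited bounds, which are not printed here, and the posterior SDs are used only where reads are shared. Symbols, coordinates, transcript ends and sequences came from GENCODE M21 (GRCm38). Ends and stem-loop distances were taken only where the M21 length equals the deposited length. A gene's GC content is the unweighted mean over its transcripts within 10% of the deposited length, or, as an alternative, the mean weighted by TPM summed over both libraries.

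Expected counts were rounded, genes with at least 20 counts in sum were kept, and counts were scaled by TMM (edgeR 4.0.16 in R 4.3.3; factors 1.22 in library 2 and 0.818 in library 1). With 1 library on each side edgeR has no residual degrees of freedom, so exact binomial tests with Benjamini-Hochberg adjustment were run in scipy 1.17.1, tested on simulated data; folds use a prior count of 0.5, and the lowess curve a span of 0.3 (statsmodels 0.14.6). The alternatives used DESeq2 1.42.0 size factors, total count, other filters, FPKM, counts per kilobase, a pseudocount of 1 and each library alone. Intervals and floors (3 counts) cover counting error only. Genes were named by rule: variants at 1 TPM or more, the 15 highest canonical genes, those next to 1 TPM, the largest called folds and the highest and undetected genes of each list. Hist1h1e, Hist4h4, H2afy2, the marker genes, Rpl36 and Bcl9l were named after their values were seen. The libraries form 1 group, so they were never compared as conditions. Of the marker lists, 1 gene is not reported here.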

Additional observations from a re-analysis of the deposited data

How the results depend on the processing

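The canonical share of histone TPM kept its place below 50% under each alternative: 27.6 to 45.1% when either library was left out, 36.4% with protein-coding members alone, 33.1% from counts per kilobase and 14.3% without Hist1h2bc (26.3% in library 2 and 2.41% in library 1). The median log2 level of canonical minus variant genes was -1.26 and ranged from -1.85 to -0.68 with either library alone. It was -3.91 for protein-coding members, -4.36 for members with at least 1 summed count and -0.21 with a pseudocount of 1. The canonical median is 0 TPM in both libraries, so the pseudocount sets much of this value. Genes at 1 TPM or more numbered 4 to 9 (canonical) and 6 to 10 (variant) when either library was left out, since a gene then had to pass in 1 library only. With TPM rescaled without mitochondrial genes, 6 canonical and 8 variant genes passed in both libraries. The same numbers passed at a limit of 0.5 TPM. Among the 50 canonical transcripts of unchanged length, which leave out Hist1h2bc, the share of TPM past the stem-loop was 91.1%, 83.6 to 98.7% with either library alone, and 50.3% with a limit of 100 bases (87.6% there without the Hist2h2aa pair). Called members numbered 8 of 17 (7165 of 12728 genes in all), with the same 8 under DESeq2 size factors (7198 of 12728 genes). With total count 8 of 17 were called (6270 of 12728 genes), and with no minimum fold 11 of 17 (10610 of 12728 genes). The number of tested members changed with the count filter. At a summed count of at least 200, 6 of 10 were called (4732 of 8820 genes). At a summed count of at least 1, 10 of 36 were called (7456 of 18290 genes). The GC curve left 3 higher and 4 lower of 15 (2317 of 12113 genes), and 4 in all with GC content weighted by TPM (1682 of 12055 genes). In both GC settings the higher calls were the Hist2h2aa pair, which passed the filter through library 2 alone, and H2afv. No paired analysis was possible because the 2 libraries form 1 group. Depth limits the values of genes with few counts, every H4 gene among them (at most 22.3 counts in a library).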
